A study of Homo sapiens with 52 samples.

Results

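The MCTS1 transcripts are 3 entries of the deposited transcript table, ENST00000371317, ENST00000371315 and ENST00000493274 (versions ENST00000371317.10, ENST00000371315.3 and ENST00000493274.5), out of 226882 transcripts. They were selected by identifier from a list of MCTS1 transcripts, and all 3 were found. ENST00000493274 was chosen from its loss in the Ribo-seq libraries of the MCTS1 knockout, so the knockout's Ribo-seq values are given for all 3 as a description, with no test. No table used here pairs these identifiers with genes, so the gene name rests on the list.

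The study, per its title, asks how eIF2D acts in removing 40S ribosomal subunits from mRNA, and its cells are HEK293T, a transformed human embryonic kidney line. RNA-seq measured mRNA levels, and Ribo-seq measured the footprints that ribosomes leave on mRNA after cycloheximide and RNase I treatment of the lysates. TCP-seq (translation complex profiling) measures fragments held by ribosomal complexes, and 40S Sel-TCP-seq measured those in small-subunit complexes selected through a tagged protein. Which ribosomal fraction unselected TCP-seq used is not stated in the labels.

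RNA-seq and Ribo-seq each covered 6 groups of 2 libraries. These were wild type (WT) cells, the MCTS1 knockout lines KO #1 and KO #2, cells with a control siRNA (siControl), and cells with either of 2 siRNAs against DENR (siDENR #1 and siDENR #2). TCP-seq covered WT cells with 4 libraries, eIF2D KO #1 and #2 and MCTS1 KO #1 and #2 with 2 libraries each. Sel-TCP-seq covered V5-tagged eIF2D, MCTS1 and DENR with 2 libraries each and had no untagged control. WT and knockout cells of every assay carried no siRNA, and all siRNA cells were otherwise HEK293T with no knockout named. The knockout alleles, whether each knockout line is 1 clone, the siRNA sequences, their duration and the way the tags were introduced are not stated in the labels used here.

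MCTS1 and DENR form a heterodimer that binds the 40S subunit. It is known for recycling 40S subunits after termination and for allowing ribosomes to initiate again after a short upstream open reading frame. eIF2D is a single protein with domains related to those of both partners. MCTS1 has an intronless retrocopy, MCTS2, with a closely similar coding sequence, so reads may be uncertain between the 2 genes.

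Library totals ran from 76967099 to 301214608 counts in RNA-seq, from 16370112 to 193940882 in Ribo-seq, from 1609303 to 5053637 in TCP-seq and from 356019 to 2582917 in Sel-TCP-seq. The deepest RNA-seq and Ribo-seq libraries were both from MCTS1 KO #1. The labels do not say whether replicates were separate cultures, so the p-values rest on a spread between libraries that may be technical alone. In these bulk libraries, fewer cells with a transcript and less of it per cell cannot be told apart. Levels are given as CPM, the count scaled to a library total of 1000000, and they are not divided by length, so the levels of 2 transcripts in 1 library are not compared as abundances.

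**Figure D1:**
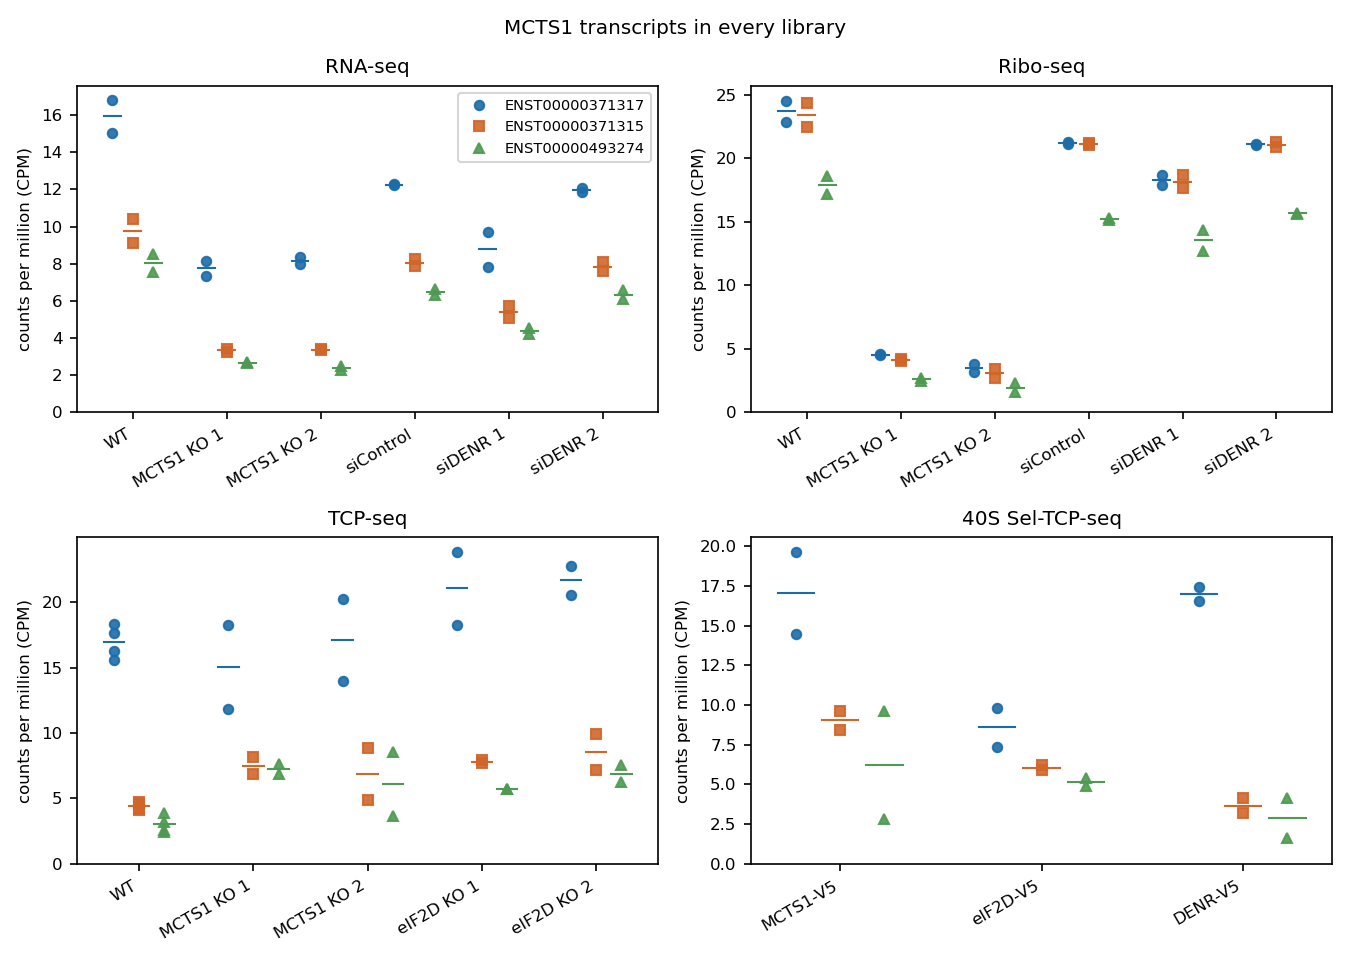
CPM (vertical axes, linear, from 0) of the 3 MCTS1 transcripts in each of 42 libraries, by assay and group. Points are libraries and lines are group means. The MCTS1 KO points lie lowest in Ribo-seq for all 3 transcripts. In TCP-seq they run from 11.8 to 20.2 CPM for ENST00000371317, to both sides of the WT range of 15.6 to 18.3 CPM.

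The targeted gene was less abundant at the mRNA level in both MCTS1 knockout lines, and unevenly so across its transcripts. ENST00000371317 kept 49.8% of the WT mean in RNA-seq, ENST00000371315 34.2% and ENST00000493274 31.3%. No transcript was lost from any knockout library.

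ENST00000371317 stood at 15.1 and 16.9 CPM in the WT RNA-seq libraries, at 8.15 and 7.35 CPM in KO #1 and at 8.34 and 7.96 CPM in KO #2. All 4 knockout libraries lay below both WT libraries, and the 2 lines overlapped each other. It fell by 1.00 ± 0.05 (log2, SE) with an adjusted p of 5.17e-25 (edgeR quasi-likelihood test, Benjamini-Hochberg adjustment over all transcripts).

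ENST00000371315 was measured at 9.13 and 10.4 CPM in WT RNA-seq, at 3.23 and 3.41 CPM in KO #1 and at 3.34 and 3.40 CPM in KO #2. The 4 knockout values were tightly grouped and far from the WT pair. This transcript fell by 1.55 ± 0.07 (log2, SE; edgeR adjusted p = 2.91e-29).

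ENST00000493274 gave 7.58 and 8.54 CPM in WT RNA-seq, 2.62 and 2.70 CPM in KO #1, and 2.28 and 2.47 CPM in KO #2. KO #2 was the lower line here, without overlap, though the test between the lines did not pass (edgeR adjusted p = 0.563). The transcript fell by 1.68 ± 0.07 (log2, SE; edgeR adjusted p = 5.33e-29). Thus 3 of 3 members were called lower, where 13.5% of the 131951 transcripts tested were. ENST00000493274 was listed for its footprint loss in these same lines, so its call is not free of that choice. The 3 members are also not independent measurements, so the tally is a description. The median log2 change of the members was -1.55 and that of all transcripts -0.01.

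In the Ribo-seq libraries, from the contrast used to choose a member, the footprints of the knockout lines stood further below WT than their mRNA did. ENST00000371317 had 24.5 and 22.8 CPM in WT, 4.56 and 4.51 CPM in KO #1 and 3.81 and 3.14 CPM in KO #2. ENST00000371315 had 24.4 and 22.5 CPM in WT, 4.15 and 4.01 CPM in KO #1 and 3.41 and 2.72 CPM in KO #2. ENST00000493274 had 18.6 and 17.2 CPM in WT, 2.66 and 2.47 CPM in KO #1 and 2.30 and 1.57 CPM in KO #2. Each transcript was lower in all 4 knockout libraries than in either WT library, and KO #2 lay below KO #1. The share of all transcripts that separate in this way was not counted, so this too is a description. As a share of the WT mean, knockout footprints came to 16.9% for ENST00000371317, 15.2% for ENST00000371315 and 12.6% for ENST00000493274. The corresponding log2 changes were -2.58, -2.73 and -3.01, beside a median of -0.01 over 115412 transcripts. Footprints were still counted in the knockouts, from 45 counts of ENST00000493274 in a KO #2 library to 884 counts of ENST00000371317 in a KO #1 library.

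The ratio of mean Ribo-seq CPM to mean RNA-seq CPM puts the 2 assays side by side for each line, again as a description. For ENST00000371317 it was 1.49 in WT, 0.585 in KO #1 and 0.427 in KO #2. The ratio of ENST00000371315 was 2.40 in WT, 1.23 in KO #1 and 0.910 in KO #2. For ENST00000493274 it was 2.22 in WT, 0.964 in KO #1 and 0.813 in KO #2. The lines with siRNA all lay at or above the WT ratio. siControl gave 1.73, 2.62 and 2.36 for the 3 transcripts in the same order, siDENR #1 gave 2.09, 3.37 and 3.10, and siDENR #2 gave 1.76, 2.69 and 2.48.

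**Figure D2:**
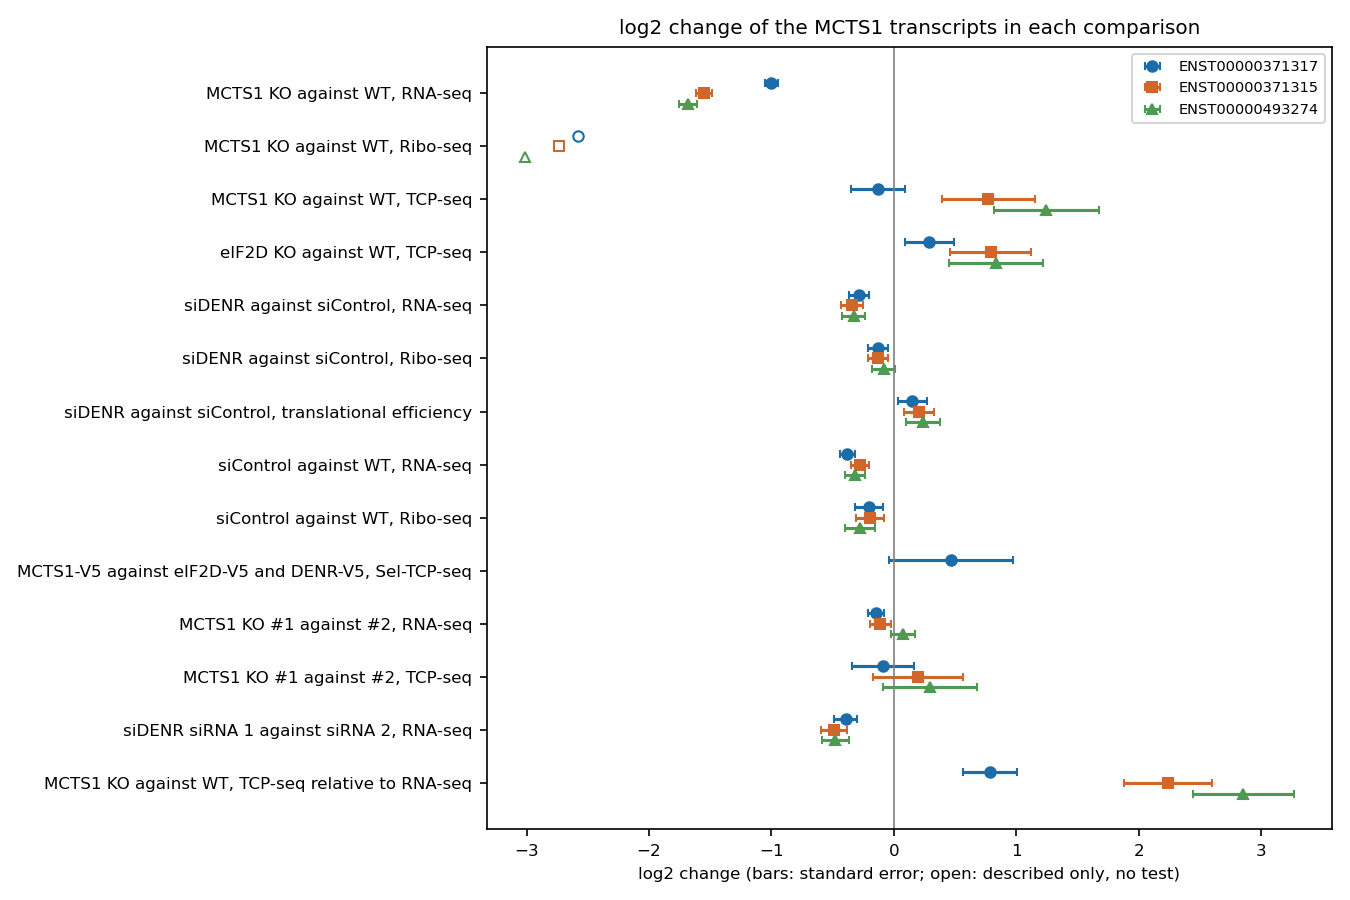
Log2 change of each MCTS1 transcript (horizontal axis) in each comparison (rows), with bars of 1 standard error. Open symbols mark the Ribo-seq contrast that chose a member and has no test. RNA-seq and Ribo-seq of the MCTS1 KO lie left of 0, down to -3.01, and the TCP-seq values relative to RNA-seq lie right of it (0.78 to 2.85).

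The make-up of the signal within each library also differed between knockout and WT. The ratio of ENST00000371315 counts to ENST00000371317 counts does not depend on library scaling. In RNA-seq it was 0.606 and 0.618 in WT, 0.396 and 0.463 in KO #1, and 0.401 and 0.427 in KO #2. The knockout and WT values did not overlap, with an exact two-sided permutation p of 0.133, the smallest that 4 against 2 libraries allow. The 8 RNA-seq libraries outside the knockout spanned 0.588 to 0.680. Against these 8, a comparison added after the data were seen, the exact permutation p was 0.00404, the smallest possible. After Benjamini-Hochberg adjustment over 6 ratio tests it was 0.0242. Each library was a unit in both tests, though each line or group gave 2 libraries. Their p-values thus leave out the spread between lines, and the 8 libraries pool WT with siRNA cells.

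A second ratio, of ENST00000493274 to ENST00000371315, was 0.830 and 0.820 in WT RNA-seq. It was 0.811 and 0.794 in KO #1 and 0.682 and 0.728 in KO #2. With each library again a unit, the exact permutation p was 0.133 against WT, the smallest possible. Against all 8 other libraries, which spanned 0.796 to 0.830 and overlapped KO #1, the exact permutation p was 0.0444 (0.0667 adjusted over the 6 tests). ENST00000493274 was listed for its footprint loss in these same lines, so neither p-value is free of that choice.

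In Ribo-seq, the ratio of ENST00000371315 to ENST00000371317 was 0.985 to 1.01 in the 8 libraries outside the knockout and 0.867 to 0.911 in the 4 knockout libraries. The ratio of ENST00000493274 to ENST00000371315 was 0.720 to 0.768 outside the knockout and 0.577 to 0.673 in it. Both are descriptions, since they come from the contrast that chose a member.

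**Figure D3:**
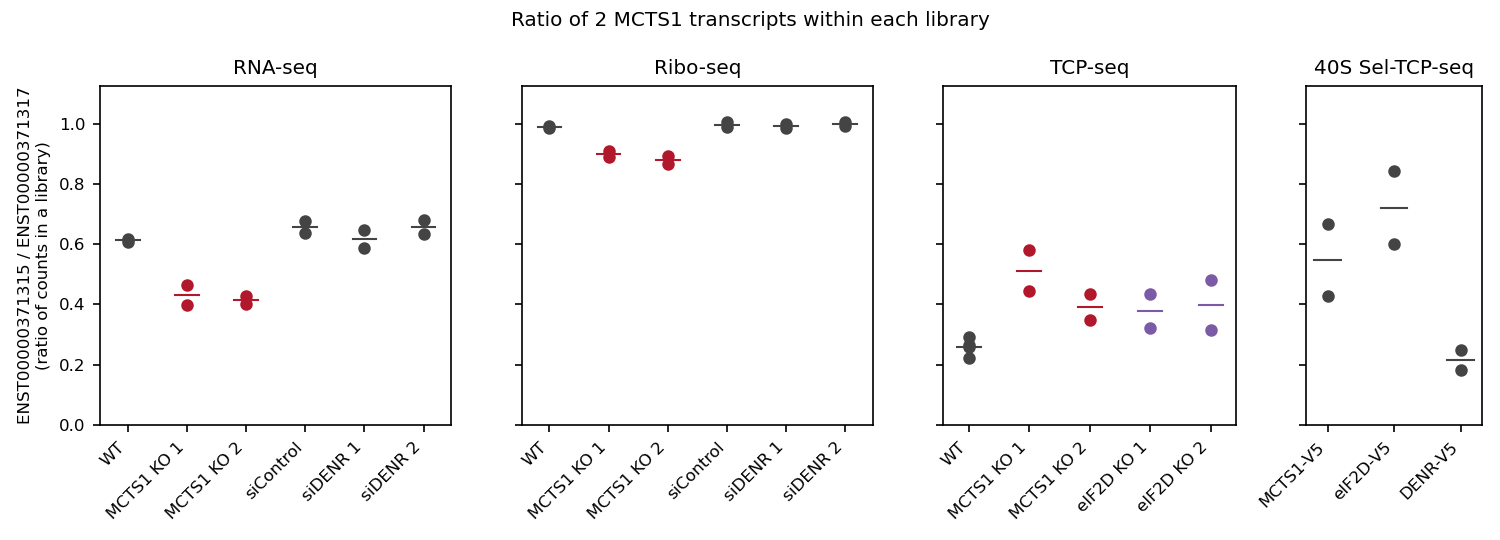
Ratio of ENST00000371315 counts to ENST00000371317 counts (vertical axis, no unit, from 0) in each library, by assay and group. Points are libraries and lines are group means. The 4 MCTS1 KO libraries lie at 0.396 to 0.463 in RNA-seq, below all others of that assay, and at 0.348 to 0.579 in TCP-seq, above the 4 WT libraries (0.222 to 0.292).

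Subtracting the CPM of ENST00000371315 from that of ENST00000371317 shows how the excess of the latter behaved. In RNA-seq this excess was 6.18 ± 0.363 CPM in WT (SD, n = 2) and 4.61 ± 0.478 CPM in the knockout (SD, n = 4), or 74.6% of WT. The knockout excess, 3.95 to 5.00 CPM, lay below both WT values (5.92 and 6.44 CPM). It lay within the 2.78 to 6.44 CPM of the 8 RNA-seq libraries outside the knockout, which include the siRNA groups. In Ribo-seq the excess was 0.246 ± 0.129 CPM in WT (SD, n = 2) and 0.433 ± 0.0450 CPM in the knockout (SD, n = 4). As a description, the knockout range of 0.405 to 0.499 CPM lay above the -0.122 to 0.337 CPM of the 8 Ribo-seq libraries outside it. Between WT and knockout RNA-seq, the mean of ENST00000371315 went from 9.77 to 3.34 CPM and the excess from 6.18 to 4.61 CPM. In Ribo-seq the excess was under 1 CPM in either genotype. Whether the 2 transcripts share reads was not tested. The excess is a difference of 2 counts and not a count of separate reads: in 1 siControl and 1 siDENR #2 Ribo-seq library ENST00000371315 had more counts than ENST00000371317, by 3 and 2.

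**Figure D4:**
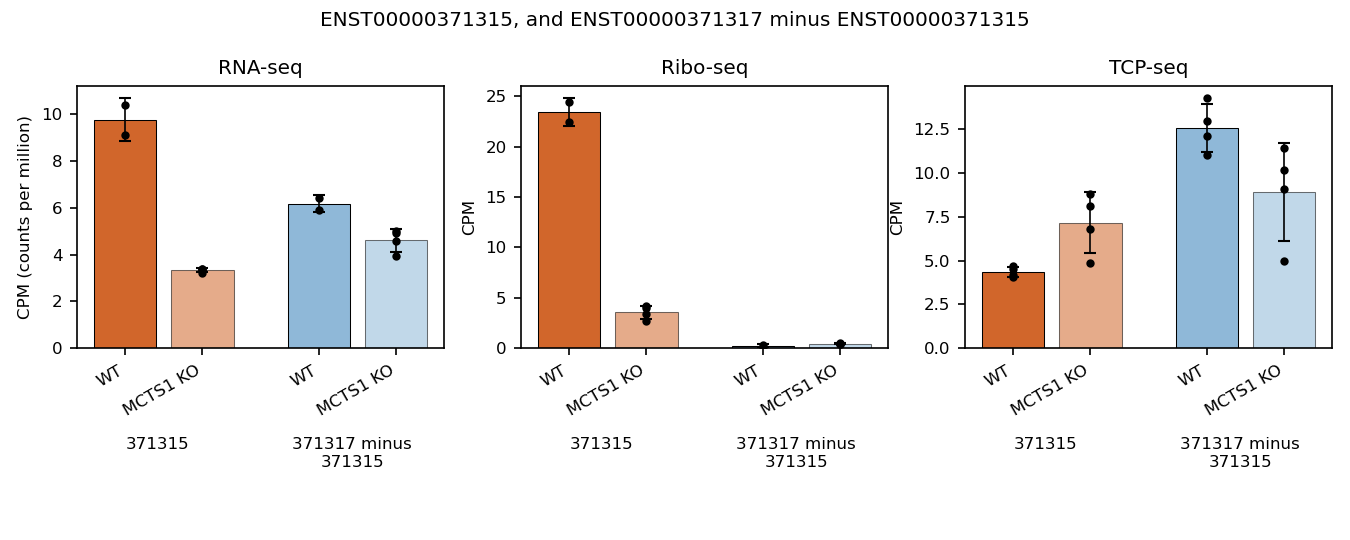
CPM (vertical axes, from 0) of ENST00000371315 and of the excess of ENST00000371317 over it, in WT and MCTS1 KO libraries of 3 assays. Bars are means, points are libraries, and error bars are SD (2 WT and 4 KO libraries in RNA-seq and Ribo-seq, 4 of each in TCP-seq). In RNA-seq ENST00000371315 goes from 9.77 to 3.34 CPM while the excess goes from 6.18 to 4.61 CPM.

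The libraries labelled MCTS1 KO did not show the loss in TCP-seq. Their counts were low, 8 to 50 for ENST00000371315 over all TCP-seq libraries, so the exact Poisson 95% intervals are wide. These intervals cover counting error only. Each knockout was set against the 2 WT libraries next to it in the library numbering (WT 3 and 4 for MCTS1, WT 1 and 2 for eIF2D).

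ENST00000371317 stood at 15.6, 17.7, 18.3 and 16.3 CPM in WT 1 to 4, at 18.3 and 11.8 CPM in the libraries labelled MCTS1 KO #1 and at 14.0 and 20.2 CPM in those labelled KO #2. One library of each line lay below the WT range, and the other lay within it for KO #1 and above it for KO #2. The log2 difference was -0.13 ± 0.22 (SE; edgeR adjusted p = 0.747).

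ENST00000371315 was at 4.54, 4.68, 4.08 and 4.21 CPM in WT 1 to 4, at 8.13 and 6.84 CPM in the libraries labelled KO #1 and at 4.86 and 8.82 CPM in those labelled KO #2. All 4 lay above the 4 WT libraries, the lowest by little: its 16 counts have an interval of 2.78 to 7.89 CPM. The log2 difference of 0.77 ± 0.38 (SE) had an adjusted p of 0.162 (edgeR).

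ENST00000493274 had 3.89, 2.60, 2.45 and 3.16 CPM in WT 1 to 4, 7.62 and 6.84 CPM in the libraries labelled KO #1 and 3.64 and 8.56 CPM in those labelled KO #2. The lowest of them fell inside the WT range and the other 3 above it. The transcript rose by 1.25 ± 0.43 (log2, SE; edgeR adjusted p = 0.0357). This call was lost in 4 of the 6 edgeR fits with 1 library left out: without WT replicate 3 (0.99, adjusted p = 0.370), WT replicate 4 (1.46, adjusted p = 0.0917), replicate 1 of KO #1 (1.20, adjusted p = 0.0933) and replicate 2 of KO #2 (0.86, adjusted p = 0.249). It was also lost with either line alone (adjusted p = 0.0846 and 0.0774), with the other WT pair (0.119) and with no filter (0.0813). One of 3 members was called higher, where 7.28% of 50991 transcripts were. An unadjusted edgeR p under 0.05 was found for 2 of 3 members and for 14048 of the 50991 transcripts, in either direction.

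Set against RNA-seq in 1 model, an addition made after the data were seen, the knockout's TCP-seq values were higher for 3 of 3 members, where 5.89% of 41825 transcripts were called higher. The log2 difference between the TCP-seq change and the RNA-seq change was 0.78 ± 0.22 for ENST00000371317 (SE; edgeR adjusted p = 0.0113). For ENST00000371315 it was 2.24 ± 0.36 (SE; edgeR adjusted p = 1.17e-05). ENST00000493274 had the value of 2.85 ± 0.41 (SE; edgeR adjusted p = 1.48e-06). The median over all transcripts was -0.04. As in RNA-seq, the tally of members holds ENST00000493274, which was listed for its footprint loss in these lines. The first of these passed in the full data and not without WT TCP-seq replicate 3 (0.90, adjusted p = 0.0586), replicate 1 of KO #1 (0.64, adjusted p = 0.131) or replicate 2 of KO #2 (0.65, adjusted p = 0.0534). The RNA-seq and TCP-seq libraries are separate preparations, and the part of that in the difference was not tested.

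In eIF2D knockout TCP-seq, no member passed the test (0 of 3, where 1.61% of 50991 transcripts were called in either direction). An unadjusted edgeR p under 0.05 was found for 2 of 3 members, which are not independent, and for 6359 of the 50991 transcripts. ENST00000371317 stood at 23.9 and 18.3 CPM in eIF2D KO #1 and at 20.6 and 22.8 CPM in eIF2D KO #2, against 15.6 and 17.7 CPM in WT 1 and 2. Its log2 difference was 0.29 ± 0.20 (SE; edgeR adjusted p = 0.597). ENST00000371315 had 7.70 and 7.92 CPM in KO #1 and 9.89 and 7.15 CPM in KO #2, against 4.54 and 4.68 CPM. All 4 values lay above both WT libraries, and the log2 difference was 0.79 ± 0.33 (SE; edgeR adjusted p = 0.259). ENST00000493274 had 5.67 and 5.73 CPM in KO #1 and 7.52 and 6.26 CPM in KO #2, against 3.89 and 2.60 CPM. The groups did not overlap, and the log2 difference was 0.83 ± 0.38 (SE; edgeR adjusted p = 0.327).

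The within-library ratio of ENST00000371315 to ENST00000371317 was higher in both knockouts than in WT TCP-seq, though neither difference passed after adjustment. This ratio was 0.292, 0.265, 0.222 and 0.258 in WT 1 to 4, from 8 to 14 counts of ENST00000371315. In the libraries labelled MCTS1 KO it was 0.444 and 0.579 for #1 and 0.348 and 0.436 for #2. The eIF2D KO gave 0.322 and 0.433 for #1 and 0.481 and 0.314 for #2. Neither knockout overlapped the 4 WT libraries, nor the 2 of its own stretch of library numbers. Each comparison, added after the data were seen, had an exact two-sided permutation p of 0.0286, the smallest that 4 against 4 libraries allow, and 0.0571 after adjustment over the 6 ratio tests. Both comparisons share the WT libraries and take each library as a unit, though 2 come from each knockout line. For the MCTS1 knockout, the ratio was thus below WT in RNA-seq and above it in TCP-seq. The excess of ENST00000371317 over ENST00000371315 in TCP-seq was 12.6 ± 1.37 CPM in WT (SD, n = 4), 8.91 ± 2.79 CPM in the libraries labelled MCTS1 KO (SD, n = 4) and 13.2 ± 3.13 CPM in the eIF2D KO (SD, n = 4).

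MCTS1 mRNA was lower with siDENR #1, an siRNA against the partner of MCTS1, and did not pass the test with siDENR #2. With both siRNAs averaged, 3 of 3 members were called lower, where 12.9% of 131311 transcripts were. The knockdown itself was not checked here, since DENR was not matched to transcripts.

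ENST00000371317 was at 12.3 and 12.2 CPM in siControl RNA-seq, at 7.83 and 9.70 CPM with siDENR #1 and at 11.9 and 12.1 CPM with siDENR #2. The siDENR #1 pair was lowest and siDENR #2 lay just under the controls. Over both siRNAs it fell by 0.29 ± 0.08 (log2, SE; edgeR adjusted p = 0.00559).

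ENST00000371315 gave 7.85 and 8.27 CPM with siControl, 5.06 and 5.70 CPM with siDENR #1 and 8.06 and 7.62 CPM with siDENR #2. Only the siDENR #1 pair was clear of the controls, and siDENR #2 overlapped them. It fell by 0.34 ± 0.09 (log2, SE; edgeR adjusted p = 0.0025).

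ENST00000493274 gave 6.29 and 6.61 CPM with siControl, 4.18 and 4.54 CPM with siDENR #1 and 6.56 and 6.07 CPM with siDENR #2. The pattern was that of ENST00000371315, and it fell by 0.33 ± 0.09 (log2, SE; edgeR adjusted p = 0.00646). With siDENR #1 alone, the 3 log2 changes were -0.48, -0.59 and -0.57, in the order given, with edgeR adjusted p of 5.90e-05, 1.12e-05 and 5.34e-05. With siDENR #2 alone, they were -0.09, -0.10 and -0.09, with edgeR adjusted p of 0.556, 0.568 and 0.636. The difference between the siRNAs, tested after the data were seen, was -0.39 ± 0.09, -0.49 ± 0.10 and -0.48 ± 0.11 (log2, SE; edgeR adjusted p = 0.00113, 0.000235 and 0.000666), lower with #1 for 3 of 3 members, where 12.4% of transcripts were. Without siControl replicate 2, no member passed in the comparison of both siRNAs with siControl (adjusted p = 0.113, 0.138 and 0.187 in the same order), and without siControl replicate 1 ENST00000371317 did not (0.0763).

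Footprints of the MCTS1 transcripts in siDENR against siControl did not pass the test (0 of 3, where 10.4% of 108890 transcripts were called). ENST00000371317 had 21.3 and 21.1 CPM with siControl, 18.7 and 17.9 CPM with siDENR #1 and 21.1 CPM in both siDENR #2 libraries. ENST00000371315 ran from 17.6 to 18.6 CPM with siDENR #1 and from 20.9 to 21.3 CPM with siDENR #2, against 21.0 and 21.2 CPM. ENST00000493274 ran from 12.7 to 14.3 CPM with siDENR #1 and from 15.6 to 15.7 CPM with siDENR #2, against 15.2 and 15.3 CPM. The siDENR #1 libraries were the lower for all 3 transcripts and siDENR #2 lay at or near the siControl values. Log2 differences over both siRNAs were -0.13 ± 0.08, -0.13 ± 0.08 and -0.08 ± 0.10 (SE; edgeR adjusted p = 0.376, 0.371 and 0.681). The change in Ribo-seq relative to RNA-seq, or translational efficiency, was 0.15 ± 0.12, 0.20 ± 0.12 and 0.24 ± 0.14 (log2, SE; edgeR adjusted p = 0.736, 0.628 and 0.604). No member was called in it (0 of 3, where 0.369% of 102515 transcripts were). No member had an unadjusted p under 0.05, where 9621 of the 102515 transcripts did.

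The control groups were not interchangeable. MCTS1 mRNA was lower with siControl than in WT cells for 3 of 3 members, where 16.2% of 128418 transcripts were called lower. The log2 change was -0.38 ± 0.06 for ENST00000371317 (SE; edgeR adjusted p = 1.04e-06), and its 2 siControl values of 12.3 and 12.2 CPM lay below the WT values of 15.1 and 16.9 CPM. It was -0.28 ± 0.08 for ENST00000371315 (SE; edgeR adjusted p = 0.00261) and -0.32 ± 0.08 for ENST00000493274 (SE; edgeR adjusted p = 0.00117). The last 2 did not pass without WT replicate 2 (-0.18 and -0.23, adjusted p = 0.195 and 0.104). In Ribo-seq, no member passed (0 of 3, where 9.59% of 107444 transcripts were called), with log2 differences of -0.20 ± 0.11, -0.19 ± 0.11 and -0.27 ± 0.12 (SE; edgeR adjusted p = 0.303, 0.337 and 0.173). One of the 3 had an unadjusted p under 0.05, as did 23980 of the 107444 transcripts. Transfection and preparation cannot be told apart in this contrast.

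By group mean in RNA-seq, all 3 transcripts ranked WT, siControl, siDENR #2, siDENR #1 and then the knockout lines. For ENST00000371315, siControl and siDENR #2 did not differ beyond their spread, at 8.06 ± 0.300 and 7.84 ± 0.311 CPM (SD, n = 2 each). The knockout lines came next to each other, at 3.32 ± 0.124 CPM for KO #1 and 3.37 ± 0.0382 CPM for KO #2 (SD, n = 2 each). siDENR #1 lay between these pairs, at 5.38 ± 0.454 CPM (SD, n = 2). For ENST00000371317, siDENR #1 at 8.76 ± 1.32 CPM overlapped the knockout lines at 7.75 ± 0.564 and 8.15 ± 0.266 CPM (SD, n = 2 each). In Ribo-seq the order was WT, the siControl and siDENR #2 groups, siDENR #1, KO #1 and KO #2. In TCP-seq, ENST00000371317 had its highest means in the eIF2D KO lines, at 21.7 ± 1.57 CPM for #2 and 21.1 ± 3.97 CPM for #1 (SD, n = 2 each). WT, at 17.0 ± 1.27 CPM (SD, n = 4), lay between the MCTS1 KO lines at 17.1 ± 4.44 and 15.0 ± 4.58 CPM (SD, n = 2 each), within their spread.

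The 2 MCTS1 knockout lines did not differ in any member by the test in RNA-seq (0 of 3, where 45.8% of 131951 transcripts were called). KO #1 minus KO #2 was -0.14 ± 0.06 for ENST00000371317, -0.11 ± 0.09 for ENST00000371315 and 0.08 ± 0.10 for ENST00000493274 (log2, SE; edgeR adjusted p = 0.059, 0.314 and 0.563). The first passed without replicate 1 of KO #1 (-0.22, adjusted p = 0.0126). In TCP-seq, the lines differed by -0.09 ± 0.25, 0.20 ± 0.37 and 0.30 ± 0.38 (log2, SE; edgeR adjusted p = 0.906, 0.857 and 0.777), with 0 of 3 called where 3.44% of 50991 transcripts were.

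In the Sel-TCP-seq libraries, the MCTS1 transcripts had counts with each tagged protein, including MCTS1 itself. With no untagged control, counts from selection and from background cannot be told apart. ENST00000371317 stood at 19.7 and 14.5 CPM with MCTS1-V5, at 17.5 and 16.6 CPM with DENR-V5 and at 9.83 and 7.36 CPM with eIF2D-V5. The eIF2D-V5 pair was below the other 4 libraries, from 10 and 19 counts. MCTS1-V5 minus the mean of the others was 0.47 ± 0.51 (log2, SE; edgeR adjusted p = 0.822). Against eIF2D-V5 alone it was 1.09 ± 0.56 and against DENR-V5 alone -0.15 ± 0.58 (log2, SE; edgeR adjusted p = 0.245 and 0.963). No transcript was called in that comparison (0% of 12135 by edgeR and 0 by DESeq2, with 1035 and 406 at an unadjusted p under 0.05), although single left-out libraries gave up to 130 calls.

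ENST00000371315 and ENST00000493274 did not pass the filter on low counts there and were not tested. ENST00000371315 had 3 and 6 counts with MCTS1-V5 (8.43 and 9.65 CPM), 6 and 16 with eIF2D-V5 (5.90 and 6.19 CPM) and 2 in each DENR-V5 library (3.18 and 4.14 CPM). ENST00000493274 had 1 and 6 counts with MCTS1-V5, 5 and 14 with eIF2D-V5 and 1 and 2 with DENR-V5. The 3 groups of ENST00000371315 did not overlap. The exact Poisson 95% interval of the first MCTS1-V5 library's 3 counts was 1.74 to 24.6 CPM, which holds all 6 values. The ratio of ENST00000371315 to ENST00000371317 was 0.600 and 0.842 with eIF2D-V5, 0.429 and 0.667 with MCTS1-V5, and 0.182 and 0.250 with DENR-V5, from 2 to 19 counts each.

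Among transcripts of at least 5 CPM on average in RNA-seq (39982), the transcript outside the list most like each member was ENST00000487133. The measure was Pearson's r of log2(CPM + 1) over the 42 libraries after removing each assay's mean, given as a description because the values share libraries and depth. The r was 0.85 with ENST00000371317, 0.99 with ENST00000371315 and 0.98 with ENST00000493274. ENST00000487133.1 is not on the list of members, and its gene was not matched here. Its counts were 0.982 to 1.00 times those of ENST00000371315 in RNA-seq, 0.991 to 1.01 times in Ribo-seq, 0.875 to 1.14 times in TCP-seq and 0.667 to 1 times in Sel-TCP-seq. The next transcripts in likeness reached r of 0.62 to 0.70. The members themselves correlated at 0.87 (ENST00000371317 with ENST00000371315), 0.79 (ENST00000371317 with ENST00000493274) and 0.96 (ENST00000371315 with ENST00000493274). No other transcript had the same counts as a member in all 42 libraries. Whether the members share reads with each other or with ENST00000487133 was not tested, so the 3 members are not taken as independent measurements of the gene.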

How the data were processed

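The authors deposited whole-number counts per transcript, and 42 of the 52 labelled samples have a column; the other 10, from vector and eIF2D add-back cells, are not analysed here. The submitters' processing notes name STAR, cutadapt, Subread and featureCounts, with no versions, and the builds hg38 and GRCh38.p13. Neither the handling of reads shared by transcripts nor the use of strand is stated there, and either can move counts between overlapping transcripts.

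Groups came from the labels. Counts of all transcripts were fitted with edgeR 4.0.16 in R 4.3.3 (quasi-likelihood test, robust, TMM factors, filterByExpr with a minimum count of 10, adjusted p under 0.05). A knockout or siRNA effect is the mean of both lines or siRNAs against the control, and its p leaves out the spread between lines. All 12 TCP-seq libraries shared 1 fit. Standard errors were derived from the log2 change and its F statistic. Within-library ratios were compared by exact permutation over libraries (Python 3.11.15), each library being a unit also where 2 come from 1 line. Replicate pairs differed by 1.25 to 9.15 times counting noise (chi-square per degree of freedom), so none was taken for a copy. The tests were tried on simulated data first. Alternatives were DESeq2 1.42.0, no filter, library totals, each line or siRNA alone, a replicate block, the other WT pair, and each library left out.

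The members and lists were chosen with earlier results of these data known. All 3 members are named in every comparison, with the transcripts most like each (at most 2 identifiers outside the list could be printed without gene names, and 1 is). A planned list of related genes (DENR, EIF2D, ABCE1 and initiation and rescue factors) could not be matched to transcripts and has no value here.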

Additional observations from a re-analysis of the deposited data

Results flagged for a closer look

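The results below stood apart because 2 effects under the same kind of contrast differed by a direct test (edgeR, adjusted over all transcripts). The first is the pair of DENR siRNAs in RNA-seq. siDENR #1 gave lower mRNA than siDENR #2 by a log2 difference of -0.39 for ENST00000371317, -0.49 for ENST00000371315 and -0.48 for ENST00000493274. Both siDENR #1 libraries lay below both siDENR #2 libraries for each transcript, which is a description only. How many of all transcripts separate in this way was not counted, and the members are not independent measurements.

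The second is the MCTS1 knockout measured by RNA-seq and by TCP-seq. The TCP-seq change exceeded the RNA-seq change by a log2 difference of 0.78 for ENST00000371317, 2.24 for ENST00000371315 and 2.85 for ENST00000493274. The knockout libraries of the 2 assays come from different preparations, and no cause was tested. Among the 4 WT TCP-seq libraries, the 1 labelled group large enough for Dixon's test, no member's level or ratio stood out.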

How the results depend on the processing

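Over the tests of members across all transcripts, 160 of 180 alternatives of called values kept the call and the direction, and 20 kept the direction and lost the call. Of 239 alternatives of values not called, 1 gained a call and 7 changed sign. Ratio tests in RNA-seq against WT cannot pass, and Ribo-seq of the MCTS1 KO has no test. The losses in MCTS1 KO RNA-seq held under all 12 alternatives per transcript. Ratios in RNA-seq against all 8 other libraries differed by -0.21 and -0.0567 (added). The TCP-seq ratio differences, with 1 library left out, ran from 0.150 to 0.227 (MCTS1 KO) and from 0.0970 to 0.153 (eIF2D KO), each at p 0.0571, the smallest that 7 libraries allow. In MCTS1 KO TCP-seq, ENST00000371317 ran from -0.32 to 0.0067 with 1 library left out, changing sign without replicate 2 of KO #1. ENST00000493274 ran likewise from 0.86 to 1.47, and was not called with no filter (1.28), KO #1 alone (1.39), KO #2 alone (1.10) or the other WT pair (0.97). For ENST00000371317 the TCP-seq difference from RNA-seq ran from 0.64 to 0.96 with 1 library left out.

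For siDENR RNA-seq, siDENR #2 alone gave -0.091, -0.096 and -0.087 (ENST00000371317, ENST00000371315, ENST00000493274), and left-out libraries gave -0.36 to -0.21, -0.39 to -0.28 and -0.37 to -0.27. In siDENR Ribo-seq, ENST00000493274 changed sign with siDENR #2 alone (0.023). For siControl against WT, left-out libraries gave -0.36 to -0.18 (ENST00000371315) and -0.39 to -0.23 (ENST00000493274). ENST00000371317 with MCTS1-V5 was -0.15 against DENR-V5 alone and 1.09 against eIF2D-V5 alone. Between the knockout lines, ENST00000371317 ran from -0.22 to -0.090 in RNA-seq with 1 library left out. In TCP-seq the lines' difference ran, in the same way, from -0.47 to 0.21 for ENST00000371317, from -0.14 to 0.71 for ENST00000371315 and from -0.15 to 1.06 for ENST00000493274, changing sign in each.

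The replicate block changed no member's call (in MCTS1 KO RNA-seq it gave -1.54 for ENST00000371315 and -1.67 for ENST00000493274). Same-numbered libraries correlated at -0.246 to 0.424 in their deviations, so the numbers were not taken as a pairing. No paired analysis was possible for the MCTS1 KO TCP-seq comparison because its WT libraries carry other replicate numbers. Counts of called transcripts moved by over 1.5 times under some settings in every comparison but the RNA-seq one between knockout lines. In the MCTS1 KO they ran from 19290 to 55695 (RNA-seq, 32826 as reported), 2535 to 15372 (Ribo-seq, 7037), 2225 to 9758 (TCP-seq, 7054) and 2351 to 6424 (TCP-seq relative to RNA-seq, 6053). They ran from 35 to 5294 in eIF2D KO TCP-seq (823) and from 289 to 1942 between the lines in TCP-seq (1756). For siDENR they ran from 14731 to 40736 (RNA-seq, 30382), 5728 to 11593 (Ribo-seq, 11348), 139 to 766 (efficiency, 378) and 19418 to 36203 (siRNA #1 against #2, 32615). For siControl against WT they ran from 23378 to 41173 (RNA-seq, 41301) and 4831 to 10770 (Ribo-seq, 10301), and for MCTS1-V5 from 0 to 887 (0), where the block gave 210. DESeq2 gave no adjusted p for some TCP-seq values. TCP-seq and Sel-TCP-seq values rest on 5 to 104 and 1 to 19 counts per member.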
